A study of Mus musculus with 4 samples.

Results

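The LIM factor network around Lhx2 was examined in mouse cerebral cortex of embryonic day 15 (E15), in 2 control libraries (titled WT) and 2 Lhx2 cKO libraries. The network was taken as 10 genes, all of them present among the 13289 genes of the count table: the LIM-homeodomain genes Lhx2 and Lhx9, the LIM-only genes Lmo1, Lmo2, Lmo3 and Lmo4, the LIM domain-binding genes Ldb1 and Ldb2, and the genes Ssbp2 and Ssbp3. The genes were chosen by symbol with the values of this comparison already known, Lmo1 and Ldb2 among them. The difference between the groups is therefore given for each of the 10 genes as a description, and no p-value is printed for it. Whether a gene had an adjusted p under 0.05 is stated for each, and this too is only a description. The label cKO is taken to mean a conditional knockout, here of Lhx2, and the WT libraries are described by the labels as control cortex. The Cre driver, the floxed allele, the sex of the embryos and the number of embryos behind a library are not given in the labels, nor is it said that the libraries of a group came from separate embryos. P-values therefore rest on the spread between libraries of a group, which may be technical. This spread was estimated for each gene with values of all genes tested, so it is not that of the gene alone. Polyadenylated RNA of bulk cerebral cortex was sequenced, so that fewer cells of a type and less RNA per cell cannot be told apart in any value below.

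LIM-homeodomain proteins join a DNA-binding homeodomain to a pair of LIM domains, zinc-binding folds that hold other proteins. Ldb proteins bind these LIM domains and dimerise, which bridges DNA-bound factors, and Ssbp proteins bind Ldb proteins and protect them from degradation. LIM-only proteins have LIM domains but no homeodomain, so they can compete with LIM-homeodomain proteins for Ldb or join it to other DNA-binding factors such as basic helix-loop-helix (bHLH) proteins. In the cortex Lhx2 is known for its part in keeping cortical identity and in the progenitor pool, and Lmo4, Lmo3 and Ldb2 are used as markers of sets of cortical neurons.

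Total counts per library ranged from 22294237 to 24609627, and a detection floor of 3 counts was equal to 0.12 to 0.132 CPM (counts scaled to library totals with TMM factors). This floor covers counting error only. Genes of cortical neurons were well expressed in both groups. Tbr1, a T-box factor of early cortical neurons, was at 240 ± 2.07 CPM in control and 254 ± 3.56 CPM in Lhx2 cKO (SD, n = 2). Neurod2, a bHLH factor of cortical excitatory neurons, was at 1170 ± 70.8 CPM in control and 1180 ± 4.78 CPM in Lhx2 cKO (SD, n = 2). Emx1, a homeobox gene of the dorsal telencephalon, was at 113 ± 8.71 CPM in control and 39 ± 0.141 CPM in Lhx2 cKO (SD, n = 2).

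Lmo1 had the largest difference of the 10 genes, and the promoter of Lmo1 is shown beside that of its close relative Lmo3, the other LIM-only gene that was lower in Lhx2 cKO. The sequences are the 250 bases before the annotated start in the RefSeq promoter table (build GRCm38.p6, minus strand for both, printed 5′ to 3′). The capitals mark TAAT on either strand, the core that homeodomains including those of the LIM class recognise.

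Lmo1, chr7:109175208-109175457: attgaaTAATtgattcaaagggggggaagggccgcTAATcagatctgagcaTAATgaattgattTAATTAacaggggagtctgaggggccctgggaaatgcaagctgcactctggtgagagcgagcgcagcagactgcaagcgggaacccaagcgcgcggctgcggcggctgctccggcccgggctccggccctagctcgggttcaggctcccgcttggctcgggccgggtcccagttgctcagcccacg

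Lmo3, chr6:138581969-138582218: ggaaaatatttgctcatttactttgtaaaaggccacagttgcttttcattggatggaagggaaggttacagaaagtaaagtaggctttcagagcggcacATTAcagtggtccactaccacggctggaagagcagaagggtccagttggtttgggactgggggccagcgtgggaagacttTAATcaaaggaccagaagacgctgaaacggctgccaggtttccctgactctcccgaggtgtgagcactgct

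The Lmo1 window held 5 matches to TAAT counted over both strands, of which 2 overlap within 1 TAATTA that begins 186 bases before the start. The Lmo3 window held 2 matches and no TAATTA. Of 32817 promoter windows of 300 bases in the table, 58% held at least 1 TAAT on either strand, 6.86% held at least 5, and 5.3% held TAATTA, which reads the same on both strands. A promoter window was found for 8 of the 10 genes, 15 windows in all. TAATTA was found in the windows of 1 of these 8 genes, Lmo1, whose 2 windows overlap and share it. The other Lmo1 window, which starts nearer the gene body, held 2 matches to TAAT, so the count of 5 depends on the annotated start. No TAAT was found in either Lhx2 window, in any of the 3 Lmo4 windows or in the Ssbp2 window. Matches to TAAT were also found for Lhx9 (2), Ldb1 (up to 2 in a window) and Ssbp3 (up to 1). The estimates of these genes, given below, go in both directions. At least 2 matches, as in Lmo3, were held by 34.1% of all windows. A match is a stretch of letters and not a measured binding site, and no binding was measured here.

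Of the 10 genes, 7 had an adjusted p under 0.05 in edgeR's quasi-likelihood test and are said to be called: Lhx2, Lmo1, Lmo3 and Ldb1 lower in Lhx2 cKO, and Ldb2, Ssbp2 and Ssbp3 higher. Over all 13288 genes tested 20.8% were called, 11.6% as higher and 9.17% as lower. The libraries of the groups did not overlap for any of the 10 genes, against no overlap for 59.3% of all genes tested. In the authors' deposited table Lmo1 is marked as down and Ldb2 as up, the other 8 genes carry neither mark, and 9.14% of all genes in that table carry one. Nothing is read from these counts, because the genes were proposed with the same comparison in view.

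**Figure D1:**
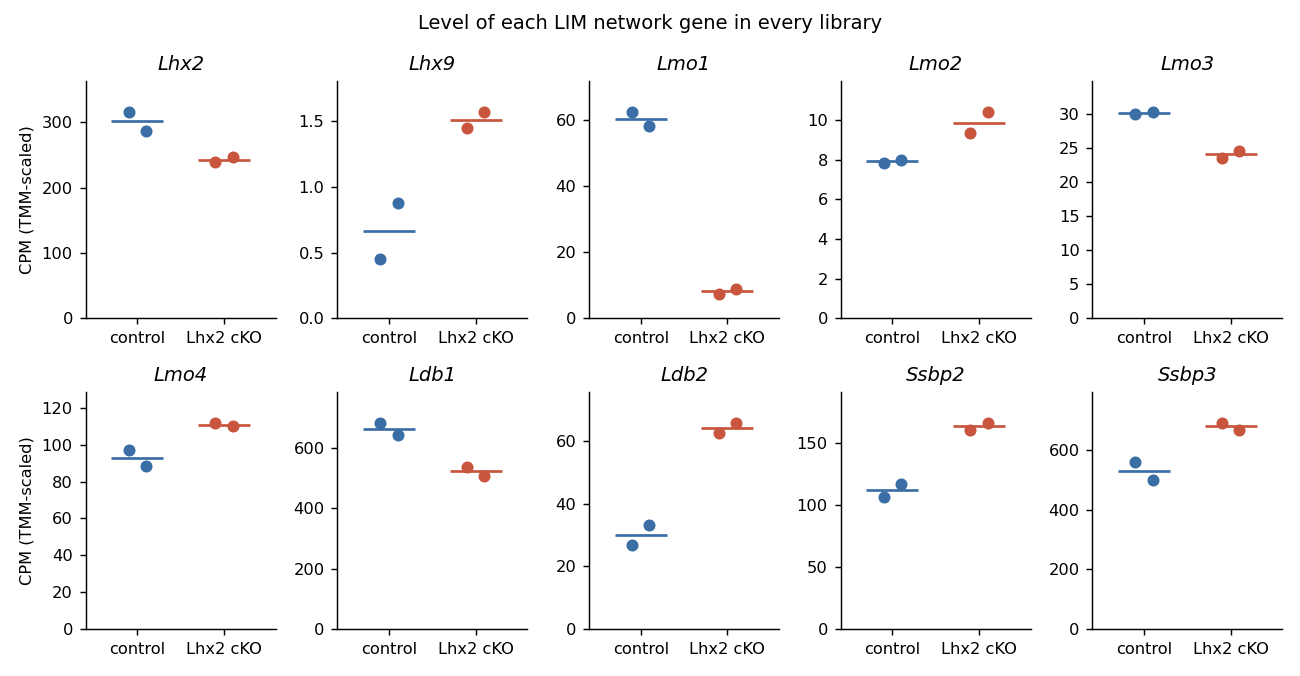
Level of each of the 10 genes in CPM (vertical axis, from 0, a separate scale per gene) in the control and Lhx2 cKO libraries; each point is 1 library and each line the mean of 2. Control and Lhx2 cKO points do not overlap in any panel, and the widest separation is that of Lmo1, at 58.2 and 62.3 CPM in control, against 7.38 and 8.79 CPM in Lhx2 cKO.

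Among the LIM-homeodomain genes, Lhx2 (ENSMUSG00000000247.12, chromosome 2) is the targeted gene and codes for a regulator of cortical progenitors. It was at 316 and 287 CPM in control, against 239 and 247 CPM in Lhx2 cKO. Both Lhx2 cKO libraries lay below both control libraries, yet most of the transcript was still counted, 80.7% of the control mean. The log2 fold change was -0.31 (SE 0.0976, 95% confidence interval -0.51 to -0.11). Its call was lost when control 1 (-0.25), Lhx2 cKO 1 (-0.28) or Lhx2 cKO 2 (-0.34) was left out, and kept without control 2 (-0.38). The counts are totals per gene, so they do not show whether the remaining reads came from the part of the gene that the knockout removes.

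Markers of the progenitors in which Lhx2 is expressed were also lower in part. Of 11 radial glia markers 5 were called lower and 1 higher, with a summed level of 878 to 927 CPM in control and 806 to 830 CPM in Lhx2 cKO. Of 8 intermediate progenitor markers 5 were called lower, and their summed level was 914 to 951 CPM in control and 612 to 639 CPM in Lhx2 cKO. The part of these cell types in the value of Lhx2 was not tested.

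Lhx9 (ENSMUSG00000019230.15, chromosome 1), the closest relative of Lhx2 in the family and a gene known from the developing thalamus and gonad, was scarcely detected. It had 11 and 22 counts in control, against 33 and 36 in Lhx2 cKO, or 0.454 and 0.88 against 1.45 and 1.57 CPM. Both Lhx2 cKO libraries were above both control libraries. The log2 fold change of 1.17 (SE 0.487, interval 0.18 to 2.15) was not called, and it was 0.76 without control 1 and 1.72 without control 2. Lhx9 stood at the edge of the table: its total of 102 counts was the lowest of any gene in it, a total shared by 4 genes, and 69 of these counts came from Lhx2 cKO. A gene at the control level of Lhx9 in all libraries would have a lower total than any gene in the table, so the presence of Lhx9 there rested on the group where it was high. Of 5 thalamic markers, Tcf7l2, Slc17a6 and Rora were in the table, and Gbx2 and Olig3 were not analysed here. Rora was called higher in the main edgeR fit but not by DESeq2 or limma-voom. In edgeR its call was also lost with RLE size factors and with the replicate block. The summed level of these markers was 98.7 to 108 CPM in control and 92.3 to 93.7 CPM in Lhx2 cKO. Most of this sum was Slc17a6, at 94.4 ± 7.51 CPM in control and 83.8 ± 0.0741 CPM in Lhx2 cKO (SD, n = 2). The log2 fold change was -0.17 for Slc17a6 and -0.40 for Tcf7l2, both not called, and 0.86 for Rora. The part of thalamic cells in the value of Lhx9 was not tested.

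**Figure D2:**
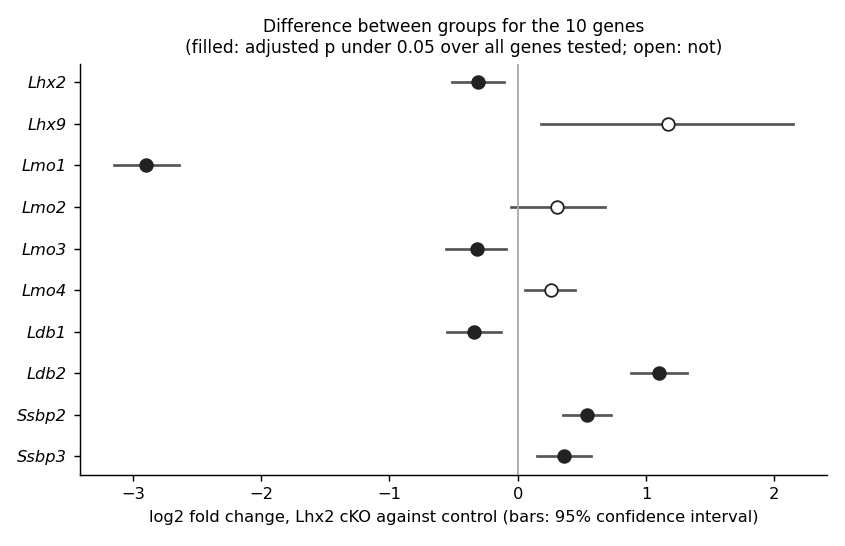
Log2 fold change between Lhx2 cKO and control, positive where Lhx2 cKO is higher (horizontal axis), for the 10 genes; points are edgeR estimates, bars their 95% confidence intervals, filled points genes with an adjusted p under 0.05 over all genes tested. Lmo1 lies at -2.90, far to the left of the other 9 genes, Ldb2 at 1.10 on the right, and the interval of Lhx9 is the widest, from 0.18 to 2.15.

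The LIM-only genes differed among themselves in direction and size. Lmo1 (ENSMUSG00000036111.9, chromosome 7), a LIM-only gene expressed in the nervous system and known as an oncogene in T-cell leukaemia and neuroblastoma, had 1511 and 1454 counts in control, against 168 and 202 in Lhx2 cKO. Its levels were 62.3 and 58.2 CPM against 7.38 and 8.79 CPM, with a wide gap between the groups and little spread within them. On the fitted scale Lmo1 was 7.44-fold lower (95% confidence interval 6.25 to 8.86), a log2 fold change of -2.90 (SE 0.125). Among all 13288 genes tested, Lmo1 ranked 6 from the most negative log2 fold change. Its estimate stayed between -3.03 and -2.78 when any 1 library was left out, and the call was kept each time.

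Lmo3 (ENSMUSG00000030226.13, chromosome 6), the relative closest to Lmo1 in sequence, was at 30 and 30.3 CPM in control, against 23.6 and 24.6 CPM in Lhx2 cKO. The groups were apart, but by a margin much smaller than that of Lmo1. The log2 fold change was -0.32 (SE 0.117, interval -0.56 to -0.09). This call was lost under each omission of 1 library (-0.34 without control 1, -0.32 without control 2, -0.29 without Lhx2 cKO 1 and -0.36 without Lhx2 cKO 2), with library totals in place of TMM (-0.33) and in DESeq2 (-0.33).

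Lmo4 (ENSMUSG00000028266.18, chromosome 3), which marks neurons of several cortical areas and layers and binds Ldb1 with high affinity, was at 97.3 and 88.5 CPM in control, against 112 and 110 CPM in Lhx2 cKO. Its log2 fold change of 0.26 (SE 0.0958, interval 0.06 to 0.45) was not called. It was called, with an estimate of 0.26, with upper-quartile factors, a mean count of at least 50, limma-voom and the replicate block. Lmo2 (ENSMUSG00000032698.16, chromosome 2), the LIM-only protein of blood and endothelial cells, was low in these libraries. Its levels were 7.84 and 8 CPM in control, against 9.32 and 10.4 CPM in Lhx2 cKO. The log2 fold change of 0.31 (SE 0.181) was not called, and its interval of -0.05 to 0.68 includes 0.

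Markers of blood and immune cells also differed between the groups. Of 10 microglia markers 9 were called higher, with a median log2 fold change of 1.34 and a summed level of 123 to 127 CPM in control and 259 to 286 CPM in Lhx2 cKO. The number called stayed at 9 in each setting run. Aif1, a calcium-binding protein of microglia, had the largest of these estimates (2.23, SE 0.312). Of 7 red blood cell markers tested 5 were called lower and 1, the embryonic globin Hbb-y, higher. Their summed level was 2340 to 3180 CPM in control and 1900 to 2130 CPM in Lhx2 cKO, and without control 1 the number called lower was 1. The part of microglia and blood cells in the value of Lmo2 was not tested.

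Per gene length, the make-up of the LIM-only transcripts differed between the groups. The summed level of the 4 Lmo genes, in RPKM (CPM per kilobase of gene length), was 77.2 and 72.1 in control, against 45.5 and 46.3 in Lhx2 cKO. Lmo1 made up 52% of this sum in each control library, against 10.5% and 12.2% in Lhx2 cKO. Lmo4 made up 35.7% and 34.7% in control, against 70% and 67.1% in Lhx2 cKO, so that Lmo1 led the sum in control and Lmo4 in Lhx2 cKO. Lmo4 itself was at 26.3 ± 1.78 RPKM in control and 31.4 ± 0.546 RPKM in Lhx2 cKO (SD, n = 2). Set against the targeted gene, the summed Lmo level was 1.07 and 1.11 per unit of Lhx2 RPKM in control, against 0.836 and 0.823 in Lhx2 cKO. Lhx2 was counted over the whole gene, so the ratio to intact Lhx2 transcript is not known.

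**Figure D3:**
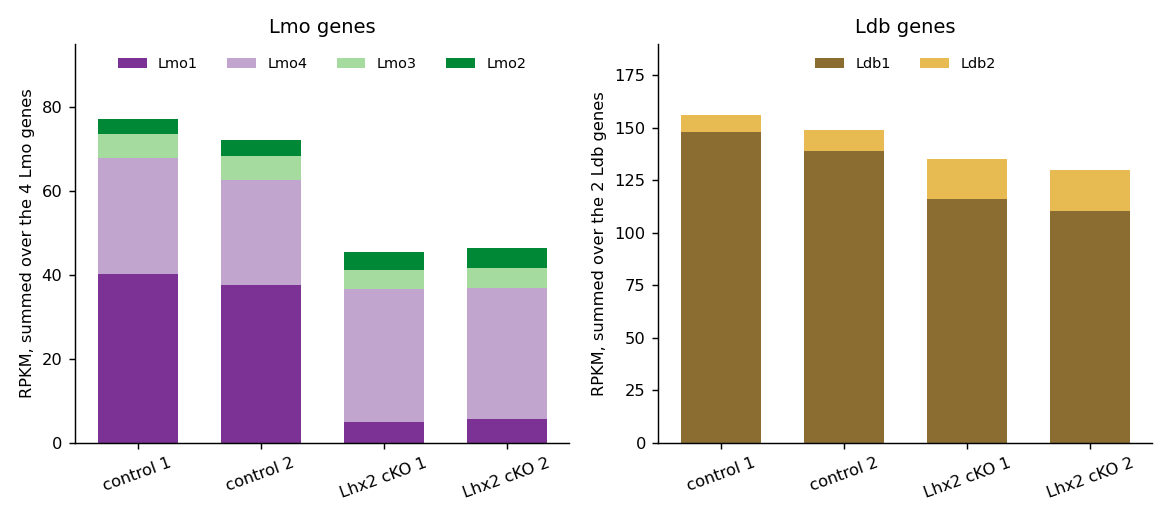
Stacked levels per gene length (RPKM, vertical axes from 0) of the 4 Lmo genes (left) and the 2 Ldb genes (right) in each of the 4 libraries. The Lmo1 part shrinks from 52% of the Lmo sum in control to 10.5% and 12.2% in Lhx2 cKO, while the Ldb2 part of the Ldb sum is 5.13% and 6.67% in control, against 13.9% and 15.2% in Lhx2 cKO.

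The Ldb cofactors differed in opposite directions. Ldb1 (ENSMUSG00000025223.16, chromosome 19), the broadly expressed adaptor of LIM-homeodomain and LIM-only complexes, was at 683 and 641 CPM in control, against 536 and 508 CPM in Lhx2 cKO. All Lhx2 cKO values lay below all control values, with 78.9% of the control mean. The log2 fold change was -0.34 (SE 0.104, interval -0.55 to -0.13), and the call was lost without control 1 (-0.31) or without Lhx2 cKO 2 (-0.31). Ldb1 shares 177 exon bases with Pprc1 on the opposite strand in the GENCODE annotation, and use of strand in counting is not stated, so a part of its counts is uncertain. Pprc1 itself was at 39.5 ± 0.702 CPM in control and 37.9 ± 1.62 CPM in Lhx2 cKO (SD, n = 2).

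Ldb2 (ENSMUSG00000039706.12, chromosome 5), the second Ldb gene, which marks subcerebral projection neurons of the deep layers and is also expressed in endothelial cells, was at 26.7 and 33.2 CPM in control, against 62.6 and 65.9 CPM in Lhx2 cKO. Both Lhx2 cKO libraries were well above both control libraries. On the fitted scale Ldb2 was 2.15-fold higher (interval 1.84 to 2.50), a log2 fold change of 1.10 (SE 0.108), with 0.94 without control 1 and 1.27 without control 2. The estimate ranked 276 from the most positive among all genes tested.

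Of 10 deep-layer neuron markers 2 were called higher and 1 lower, with a summed level of 990 to 1020 CPM in control and 993 to 1000 CPM in Lhx2 cKO. Their median log2 fold change was 0.15, against 0.003 for all genes tested. Of 10 endothelial markers 7 were called higher, with log2 fold changes of all 10 from 0.29 (Tie1) to 0.72 (Cdh5) and a summed level of 201 to 239 CPM in control and 297 to 343 CPM in Lhx2 cKO. The number of endothelial markers called was 2 without control 1, 3 without Lhx2 cKO 2 and 5 in DESeq2. The estimate of Ldb2 was above that of each of these 10 endothelial markers. Ldb2 was chosen with its value known, so nothing is read from this order. The part of endothelial cells in the values of Ldb2 and Lmo2 was not tested.

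In RPKM, Ldb1 remained far above Ldb2 in every library. Ldb2 made up 5.13% and 6.67% of the summed Ldb level in control, against 13.9% and 15.2% in Lhx2 cKO. The sum itself was 156 and 149 RPKM in control, against 135 and 130 RPKM in Lhx2 cKO. The ratio of Ldb1 to Lhx2 was 2.06 and 2.13 in control, against 2.14 and 1.96 in Lhx2 cKO, and these ranges overlap. Here too Lhx2 was counted over the whole gene.

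The Ssbp genes, whose products stabilise Ldb complexes, were both higher. Ssbp2 (ENSMUSG00000003992.16, chromosome 13) was at 106 and 117 CPM in control, against 160 and 166 CPM in Lhx2 cKO. The groups were apart, and the log2 fold change of 0.54 (SE 0.095, interval 0.35 to 0.73) kept its call under each omission of 1 library, between 0.46 and 0.61. Ssbp2 shares 1765 exon bases with 4833422C13Rik, an antisense RNA on the opposite strand, so its counts are uncertain to that extent. Ssbp3 (ENSMUSG00000061887.15, chromosome 4) was at 560 and 501 CPM in control, against 693 and 670 CPM in Lhx2 cKO. Its log2 fold change was 0.36 (SE 0.105, interval 0.15 to 0.57), and the call was lost without control 2 (0.28) or Lhx2 cKO 1 (0.34). The summed level of both genes was 98.4 and 90.9 RPKM in control, against 125 and 123 RPKM in Lhx2 cKO, of which Ssbp2 made up 13.5% and 16.2% in control, against 16% and 16.9% in Lhx2 cKO. Thus Ssbp3 gave most of the Ssbp transcripts in both groups.

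Levels per gene length can be ordered between genes within a group. In control the order of mean RPKM was Ldb1 (144), Ssbp3 (80.6), Lhx2 (68.5), Lmo1 (38.8), Lmo4 (26.3), Ssbp2 (14), Ldb2 (8.98), Lmo3 (5.87), Lmo2 (3.66) and Lhx9 (0.0702). Each neighbouring pair in this order was apart in the control libraries. In Lhx2 cKO the order was Ldb1 (113), Ssbp3 (104), Lhx2 (55.3), Lmo4 (31.4), Ssbp2 (20.4), Ldb2 (19.3), Lmo1 (5.21), Lmo3 (4.69), Lmo2 (4.54) and Lhx9 (0.159). Lmo1 moved from the fourth to the seventh place, where its libraries overlapped those of Lmo3, and those of Lmo3 overlapped those of Lmo2. The other 9 genes kept their order relative to each other. The lengths are those the authors deposited, and a gene read mainly from a short isoform would have its level understated.

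**Figure D4:**
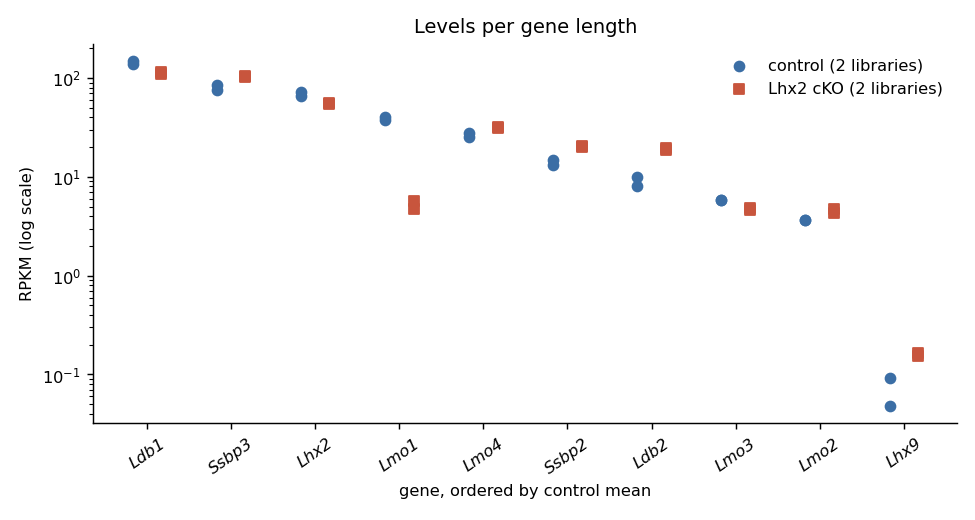
Level per gene length (RPKM, log scale) of the 10 genes in control (circles) and Lhx2 cKO (squares), 2 libraries each, ordered by the control mean. Lmo1 is at 38.8 in control and 5.21 RPKM in Lhx2 cKO, next to Lmo3 (4.69) and Lmo2 (4.54), while Ldb1 and Ssbp3 stay at the top.

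The genes whose profile over the 4 libraries was most like that of Lhx2, Lmo1 and Ldb2 were found by Euclidean distance between centred log2 CPM values, among the 10688 genes whose mean reached 5 CPM. For Lhx2 they were Brd1, Gpatch1, Dhx34, Wbp1 and Myh9, at distances of 0.00799 to 0.0235. For Ldb2 they were Col12a1, Sulf2, Tmeff2, Glra2 and Ggta1, at distances of 0.0724 to 0.108. Sulf2, an extracellular sulfatase, was at 22.6 and 29.9 CPM in control, against 52.8 and 57.3 CPM in Lhx2 cKO. Lmo1 had no gene as near: Sema5a, Xdh, Lpar1, Ly6g6e and Flrt1 were at 0.632 to 0.969. Sema5a, a transmembrane semaphorin, was at 157 and 182 CPM in control, against 32.8 and 35.7 CPM in Lhx2 cKO. With 4 libraries such distances only describe the profiles.

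Other genes of the network were taken from lists of partners. For these lists a difference is reported with its test. Each count of called genes stands against 20.8% called over all genes tested, 11.6% as higher and 9.17% as lower. These lists too were written with earlier results of these data known, so nothing is read from a share that differs from 20.8%. Of 10 other LIM-homeodomain genes, Lhx5 and Lhx6 were in the table and the other 8 were not analysed here. Lhx6, which specifies interneurons from the medial ganglionic eminence, was at 70.9 and 48.8 CPM in control, against 60.2 and 54.7 CPM in Lhx2 cKO, so that the groups overlapped (log2 fold change -0.06, SE 0.117, interval -0.29 to 0.18, edgeR adjusted p 0.776). Lhx5, a gene of the cortical hem and of Cajal-Retzius cells, was at 4.12 and 3.84 CPM in control, against 4.31 and 5.66 CPM in Lhx2 cKO (log2 fold change 0.32, SE 0.256, interval -0.19 to 0.84, edgeR adjusted p 0.411). In edgeR 0 of these 2 genes were called and 0 had an unadjusted p under 0.05. DESeq2 and limma-voom likewise called 0.

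These genes are themselves on the marker lists of their cell types. Of 6 Cajal-Retzius markers tested, Lhx5 included, 4 were called higher, and the summed level was 295 to 326 CPM in control and 447 to 570 CPM in Lhx2 cKO. Reln, the secreted signal of these cells, was at 274 ± 18.4 CPM in control and 441 ± 81.1 CPM in Lhx2 cKO (SD, n = 2). Of 8 cortical hem markers 4 were tested, of which 2 were called higher and 1 lower. Their summed level was 53.7 to 57.5 CPM in control and 44.7 to 45.9 CPM in Lhx2 cKO. Most of this sum was Rspo3, at 48.2 ± 1.95 CPM in control and 26.5 ± 1.51 CPM in Lhx2 cKO (SD, n = 2). The log2 fold change was -0.86 for Rspo3, 2.12 for Rspo2, 0.90 for Wnt5a and 0.45 for Wnt2b, which was not called. Of 11 markers of the ventral telencephalon and interneurons tested, Lhx6 included, 4 were called higher, with a summed level of 343 to 391 CPM in control and 489 to 509 CPM in Lhx2 cKO. The part of these cells in the values of Lhx5 and Lhx6 was not tested.

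Among 6 further cofactors of the Ldb and Ssbp complexes, 1 rose, 2 fell and 3 did not pass the test (50% called), with a median log2 fold change of -0.05 against 0.003 for all genes tested. Bcl9 and Bcl9l, adaptors that tie beta-catenin to Pygo proteins, both fell. Bcl9l was at 227 and 174 CPM in control, against 157 and 148 CPM in Lhx2 cKO, a log2 fold change of -0.40 (SE 0.104, edgeR adjusted p 0.00436). Bcl9 was at 206 and 181 CPM in control, against 161 and 154 CPM in Lhx2 cKO, a log2 fold change of -0.30 (SE 0.0965, edgeR adjusted p 0.0222). Pygo1, which reads histone methylation in the same complex, rose by 0.27 (SE 0.0972, edgeR adjusted p 0.0383), while Pygo2 was at 0.09. Ssbp4, a further Ssbp gene, had a log2 fold change of -0.06 (interval -0.26 to 0.13), and Rlim, the ubiquitin ligase that targets Ldb proteins, -0.05 (interval -0.26 to 0.17).

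These 3 calls rested on control 1. Without it, 0 of the 6 genes were called and 0 had an unadjusted p under 0.05 in edgeR, and the estimates were -0.21 for Bcl9l, -0.22 for Bcl9 and 0.19 for Pygo1. The call of Bcl9 was also lost without Lhx2 cKO 2 (-0.27), and that of Pygo1 without Lhx2 cKO 1 (0.21), with library totals and in DESeq2.

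Of 16 bHLH, GATA, Runx and Cbfa2t partners of Lmo and Ldb proteins, 12 were tested, 4 fell and 8 did not pass the test (33.3% called). The median log2 fold change was -0.09, against 0.003 for all genes. In edgeR with TMM factors 0 rose, also at an unadjusted p under 0.05, and 0 rose in DESeq2 and limma-voom. In edgeR 1 gene was higher at an unadjusted p under 0.05 when library totals or upper-quartile factors were used, and when control 1 or Lhx2 cKO 2 was left out. The 3 E-protein genes, whose products pair with tissue-specific bHLH factors, were all among the genes that fell. Tcf4 was at 1550 CPM in both control libraries and at 1170 and 1020 CPM in Lhx2 cKO (log2 fold change -0.50, SE 0.114, edgeR adjusted p 0.00107). Tcf3 was at 245 and 224 CPM against 181 and 165 CPM (-0.44, SE 0.0969, edgeR adjusted p 8.27e-04). Tcf12 was at 90.9 and 88.7 CPM against 74.9 and 71.5 CPM (-0.30, SE 0.0966, edgeR adjusted p 0.024).

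The fourth gene was Neurog2, the proneural factor of cortical progenitors and one of the intermediate progenitor markers above, at 118 and 116 CPM in control, against 87.2 and 86.9 CPM in Lhx2 cKO (-0.43, SE 0.0947, edgeR adjusted p 7.06e-04). The call of Tcf12 was lost under each omission of 1 library, with -0.29 without control 1, -0.31 without control 2, -0.33 without Lhx2 cKO 1 and -0.27 without Lhx2 cKO 2, and the other 3 calls were kept. The haematopoietic partners of Lmo2 were low: Tal1 was at 1.73 ± 0.238 CPM in control and 1.66 ± 0.731 CPM in Lhx2 cKO, and Lyl1 at 4.32 ± 0.396 and 4.79 ± 0.435 CPM (SD, n = 2).

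Of 3 other protein partners of Lmo4, 2 fell (66.7% called). Brca1, a DNA repair gene, went from 10.8 and 11.3 CPM in control to 5.63 and 6.14 CPM in Lhx2 cKO, a log2 fold change of -0.91 (SE 0.187, edgeR adjusted p 3.25e-04). Rbbp8, which codes for the resection factor CtIP, went from 14.4 and 16.2 CPM to 10.4 and 9.71 CPM, a log2 fold change of -0.61 (SE 0.159, edgeR adjusted p 0.00434), and lost its call without control 2 (-0.52). Deaf1 did not pass the test at 0.04 (interval -0.16 to 0.23). Brca1 and Rbbp8 are expressed with DNA replication in cycling cells. Of the 11 radial glia markers given above 5 were called lower and 1 higher, and of the 8 intermediate progenitor markers 5 were called lower. The part of progenitors in these values was not tested.

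**Figure D5:**
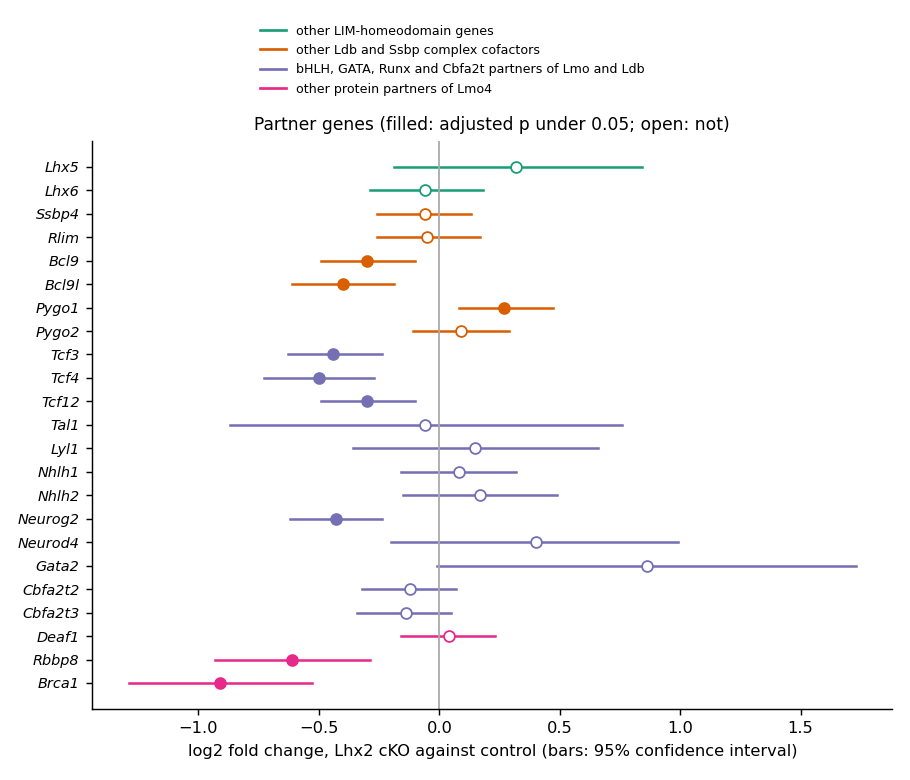
Log2 fold change between Lhx2 cKO and control, positive where Lhx2 cKO is higher (horizontal axis), with 95% confidence intervals for the tested genes of the partner lists; filled points have an adjusted p under 0.05 over all genes tested. The E-protein genes Tcf3, Tcf4 and Tcf12 lie between -0.50 and -0.30, Brca1 at -0.91, and Lhx5 and Lhx6 have intervals that include 0.

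LIM domain proteins that do not belong to the nuclear Ldb-binding family, most of them tied to actin, served as a comparison. Of 41 such genes 38 were tested, of which 6 rose, 6 fell and 26 did not pass the test, with a median log2 fold change of -0.12 against 0.003 for all genes. The share called, 31.6%, stands beside 20.8% of all genes. Mical2, an actin-oxidising enzyme, rose from 17.8 and 20.6 CPM to 54.7 and 51.4 CPM (log2 fold change 1.47, SE 0.112, edgeR adjusted p 1.61e-13). Lima1, an actin-bundling protein, fell from 60.8 and 53.9 CPM to 25.1 and 22.5 CPM (-1.27, SE 0.11, edgeR adjusted p 4.65e-12). Limch1 fell by 0.81 and Limd1 by 0.59 on the log2 scale, and Csrp1 rose by 0.78 and Csrp2 by 0.46. None of these 38 genes differed by as much as Lmo1. Lmo1 was chosen with its value known, so nothing is read from this.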

How the data were processed

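RNA-seq of polyadenylated RNA gave 1 table with raw read counts per gene, deposited by the authors, for 2 control and 2 Lhx2 cKO libraries. Per the submitters' processing notes, Trim Galore, Subread, featureCounts and edgeR were used with the build mm39; versions, roles, annotation and use of strand are not given in the sources used here. The authors' log2 fold change and mean log2 CPM, their p-value columns and the -log10 of the adjusted p-value were deposited in the same table, per the file headers, with gene lengths. The lowest gene total was 102 counts, so the table lacks lower genes.

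Counts were tested with edgeR 4.0.16 in R 4.3.3: TMM factors, filterByExpr (minimum count 10, which removed 1 gene), quasi-likelihood test, two-sided, Benjamini-Hochberg adjustment over 13288 genes, threshold 0.05. The fit was tested on simulated data. The test draws the variance of each gene toward a trend over all genes, with prior degrees of freedom of 38.7. SE is the absolute log2 fold change over the square root of F. CPM uses TMM-scaled totals, and RPKM divides it by the deposited length. Profiles used log2(CPM + 0.125). Alternatives were other scaling factors, filters, DESeq2 1.42.0, limma-voom 3.58.1, a replicate block and omission of each library. Replicates of a group were not duplicates of 1 library: chi-square over degrees of freedom was 13.9 between the controls and 14.3 between the Lhx2 cKO libraries.

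Members, partner lists and marker lists were chosen with earlier results of these data known, and lists were written from general knowledge. All 10 members are named, and up to 6 called genes per partner list by smallest p, with any other LIM-homeodomain gene present. Nearest profiles are the 5 smallest distances, leaving out members, mitochondrial genes and provisional names. Promoters come from RefSeq on GRCm38.p6, another build than that of the counts. Gene overlaps are from GENCODE on GRCm38. Some marker results are not reported here.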

Additional observations from a re-analysis of the deposited data

How the results depend on the processing

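No member changed direction under the alternatives run, and no called partner gene did so when 1 library was left out; the direction of partner genes that were not called was not followed. With all libraries the number of members called was 7 in the main analysis, and Lmo3 was no longer called with library totals (-0.33) or DESeq2 (-0.33), while Lmo4 became called with upper-quartile factors (0.26), a mean count of at least 50 (0.26), limma-voom (0.26) and the replicate block (0.26). Lhx9 had no value at a mean count of at least 50. Direction and call were kept in 73 combinations of a member and such a setting. The cause of the others was not tested.

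Leaving out 1 library assumes that the lone library of a group varies like the others. The number of genes called was then 1633 to 2396, against 2758, and of the members 4 to 5, against 7; those called each time were Lmo1, Ldb2 and Ssbp2. Log2 fold changes ranged from -0.38 to -0.25 for Lhx2, 0.76 to 1.72 for Lhx9, -3.03 to -2.78 for Lmo1, 0.23 to 0.39 for Lmo2, -0.36 to -0.29 for Lmo3, 0.19 to 0.31 for Lmo4, -0.39 to -0.31 for Ldb1, 0.94 to 1.27 for Ldb2, 0.46 to 0.61 for Ssbp2 and 0.28 to 0.43 for Ssbp3. Calls ranged from 0 to 3 among the Ldb and Ssbp cofactors, from 1 to 2 among the partners of Lmo4 and from 8 to 10 among the other LIM domain proteins, and were 3 for the bHLH and GATA partners. Because the groups do not overlap for the members, a kept sign says little about stability.

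The replicate numbers share only a number: over all genes, deviations of same-numbered libraries correlated at 9.74e-04. The replicate block gave 2874 calls, and 2736 of these were also made without it. The 9 neighbouring pairs in the control order of RPKM held in each control library and in TPM.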
